A study of Mus musculus with 12 samples.

Results

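Pdcd5, Cirbp, Stk17b, Rab4a, Slc5a3 and Papln are the 6 genes described here, out of 15804 genes tested and 55357 gene identifiers in the count table. They were chosen by their measured CPM, because every knockout heart lay on one side of every wild-type heart: 4 were higher in all 6 knockout libraries (Stk17b, Rab4a, Slc5a3, Papln) and 2 were lower (Pdcd5, Cirbp). That separation is the rule of choice, so the differences by genotype below are described and carry no test. Over all tested genes, the knockout and wild-type libraries did not overlap for 505 (3.2%), of which 257 (1.63%) were higher and 248 (1.57%) lower in the knockout. The 6 genes are therefore named examples of a group, and all of them passed the filter on low counts.

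Poly(A) RNA of 12 mouse hearts was sequenced, 3 in each of 4 groups. The tested animals were Cd163-/- mice (KO) on a C57BL/6J background after transverse aortic constriction (TAC), in which a ligature around a 27-gauge needle narrows the aorta and raises the load on the left ventricle, and Cd163-/- mice after sham surgery. They were set against wild-type C57BL/6J mice (WT) after TAC and after sham surgery, which followed the same steps with no ligature. All animals were males of 8 weeks at surgery, and the time from surgery to collection, the part of the heart and the deleted stretch of Cd163 were not used here, since no label or file states them. Cd163 encodes a macrophage receptor that takes up haemoglobin bound to haptoglobin. Replicates carry the numbers of their titles, 1, 3 and 5 after TAC and 1, 2 and 3 after sham. The labels list them as separate samples and name no animal, so a p-value here measures how far these samples spread.

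Cd163 itself, the check of the labels, averaged 3.74 ± 0.302 TMM-scaled CPM in KO TAC hearts and 4.08 ± 0.816 in KO sham hearts, against 24.1 ± 8.99 in WT TAC hearts and 15.2 ± 1.08 in WT sham hearts (SD, n = 3 each). CPM are counts brought to a common library size, and TMM scaling sets the libraries to a common level of their typical gene. For Cd163, the log2 fold change of KO over WT was -2.69 ± 0.28 after TAC (SE, edgeR adjusted p = 0.00453). After sham it was -1.89 ± 0.27 (adjusted p = 0.0748), called in 2 of 12 fits that each left out 1 library. The targeted gene itself thus did not pass after sham, and a gene not called there may still differ. Library totals ran from 14150109 to 22602225 counts. Mitochondrial transcripts took 44.0 to 51.3% of the counts in the KO TAC libraries and 51.0% in KO sham replicate 1, and 24.8 to 36.9% in the other 8. KO sham replicate 1 lay with the KO TAC libraries on the first principal component (66.7% of the variance; -44.6 against -45.0 to -40.4), WT TAC replicate 1 stood at -6.69, and the other 7 between 17.9 and 32.9. KO sham replicate 1 and WT TAC replicate 1 are called the doubted libraries below, and some results, not all, are given with and without them. The knockout-to-wild-type contrast called 3219 genes after TAC (20.4%; 1364 or 8.63% higher and 1855 or 11.7% lower, or 515 higher and 3010 lower with library totals in place of TMM) and 1 after sham (0.00633%) in edgeR's quasi-likelihood test at an adjusted p under 0.05, and the count after TAC ran from 43 to 6585 as single libraries were left out.

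The 6 genes belong to unrelated processes. PDCD5 is a small protein that binds the cytosolic chaperonin and was found through its rise in dying cells, and STK17B is a kinase of the death-associated protein kinase family best known from lymphocytes. CIRBP is an RNA-binding protein induced by mild cold, RAB4A is a small GTPase of the rapid recycling route from early endosomes to the cell surface, SLC5A3 brings myo-inositol into cells together with sodium when they meet hypertonic surroundings, and papilin (Papln) is a secreted matrix glycoprotein related to the ADAMTS proteases. The genes lie on 6 chromosomes (7, 10, 1, 8, 16 and 12 for Pdcd5, Cirbp, Stk17b, Rab4a, Slc5a3 and Papln), none of them chromosome 6, which carries Cd163. Chromosome 6 held 25 of the 505 separated genes (4.95%) and 814 of the 15767 tested genes with a known chromosome (5.16%).

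Pdcd5 has a copy that is counted beside it. The mouse genome holds a processed pseudogene, Pdcd5-ps (ENSMUSG00000102824), a copy of the spliced Pdcd5 message, and all 381 of its annotated bases are identical to the coding sequence of Pdcd5 (ENSMUSG00000030417). It is shown because a read inside it could come from either locus. The first 300 bases are shown, from the minus strand of chr1:189277524-189277823 in GENCODE M21 (GRCm38), a build that may not be that of the authors, with the start codon in capitals.
Pdcd5-ps: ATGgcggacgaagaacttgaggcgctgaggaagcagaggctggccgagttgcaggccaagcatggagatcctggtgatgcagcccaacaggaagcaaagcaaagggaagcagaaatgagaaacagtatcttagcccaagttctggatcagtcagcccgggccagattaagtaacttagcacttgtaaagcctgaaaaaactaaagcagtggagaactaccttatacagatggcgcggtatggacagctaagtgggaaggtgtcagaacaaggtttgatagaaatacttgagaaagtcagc

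Pdcd5 was at 20.1, 18.3 and 17.6 CPM in KO TAC hearts and 16.4, 19.0 and 20.6 CPM in KO sham hearts, against 52.6, 47.2 and 46.2 CPM in WT TAC hearts and 34.2, 31.9 and 41.4 CPM in WT sham hearts. The KO hearts lay in a narrow band whichever surgery they had, and the lowest WT heart stood 1.55-fold above the highest KO heart. The log2 fold change of KO over WT was -1.38 ± 0.14 after TAC and -0.94 ± 0.14 after sham (SE).

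The pseudogene went the other way. Pdcd5-ps was at 44.5, 45.3 and 44.8 CPM in KO TAC hearts and 39.2, 18.1 and 17.2 CPM in KO sham hearts, against 26.7, 19.1 and 18.7 CPM in WT TAC hearts and 13.9, 13.8 and 20.3 CPM in WT sham hearts. It was highest in the KO TAC libraries and KO sham replicate 1, while the other KO sham libraries overlapped the WT libraries. KO over WT was 1.06 ± 0.29 after TAC on the log2 scale (edgeR adjusted p = 0.0324) and 0.63 ± 0.29 after sham (adjusted p = 0.371). As single libraries were left out, the value after sham ran from 0.15 to 0.83, and without KO sham replicate 1 its adjusted p was 0.887. The call after TAC was kept in 7 of 12 fits that each left out 1 library, and its highest adjusted p was 0.112, without WT TAC replicate 3. With library totals in place of TMM the adjusted p was 0.0532.

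Of the counts given to either locus, Pdcd5 took 29.4 ± 1.52% in KO TAC hearts and 45.1 ± 13.6% in KO sham hearts, against 69.6 ± 2.84% in WT TAC hearts and 69.4 ± 2.04% in WT sham hearts (SD, n = 3 each). KO sham replicate 1 was at 29.5% (95% Wilson interval 26.5 to 32.7%, counting error only), among the KO TAC libraries, and KO sham replicates 2 and 3 were at 51.3% (48.0 to 54.5%) and 54.4% (51.0 to 57.8%). The WT libraries lay between 66.3 and 71.2%, so the shares of the genotypes did not overlap. The share contains the Pdcd5 counts by which the gene was chosen, so the choice favours this outcome and it is no separate evidence.

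With the counts of both loci summed, a step chosen after seeing the data, the level was 64.5, 63.6 and 62.5 CPM in KO TAC hearts and 55.6, 37.1 and 37.8 CPM in KO sham hearts, against 79.3, 66.3 and 64.9 CPM in WT TAC hearts and 48.1, 45.7 and 61.6 CPM in WT sham hearts. The genotypes then overlapped, and the log2 fold change of KO over WT was -0.14 ± 0.18 after TAC and -0.25 ± 0.18 after sham. Pdcd5 marks the knockout only as counted apart from its copy. How the authors counted reads that match both loci is stated in no source used here, so neither locus can be called changed as a transcript, and the part of the counting in the result was not tested. A search for copies (matches of at least 100 bases at 80% identity or more) found none for Cirbp, Stk17b, Rab4a or Papln.

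**Figure D1:**
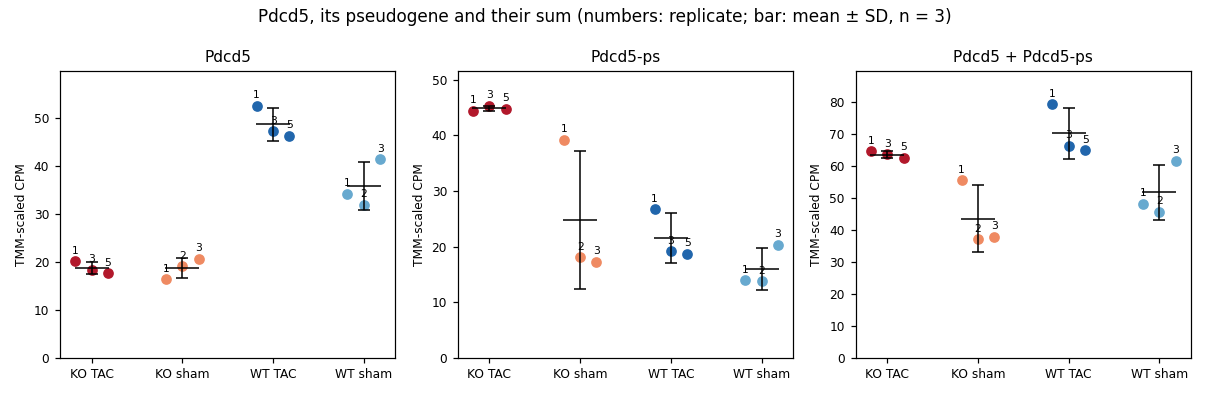
Levels of Pdcd5, of its pseudogene Pdcd5-ps and of the summed counts of both, in TMM-scaled CPM (y axes from 0), for KO TAC, KO sham, WT TAC and WT sham hearts. Points are libraries with their replicate numbers, and bars are the mean ± SD of 3. Pdcd5 is at most 20.6 CPM in the KO libraries and at least 31.9 CPM in the WT libraries, Pdcd5-ps is at 44.5 to 45.3 CPM in the KO TAC libraries, and the sums overlap.

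Cirbp (ENSMUSG00000045193) was the other gene below WT in every KO heart. It was at 23.2, 21.6 and 29.2 CPM in KO TAC hearts and 24.3, 24.4 and 20.8 CPM in KO sham hearts, against 45.5, 38.9 and 44.0 CPM in WT TAC hearts and 37.9, 42.4 and 39.9 CPM in WT sham hearts. The highest KO heart was KO TAC replicate 5 and the lowest WT heart WT sham replicate 1, 0.37 apart on the log2 scale. The difference was alike in size under both surgeries, with a log2 fold change of KO over WT of -0.80 ± 0.14 after TAC and -0.79 ± 0.14 after sham. Its closest paralogue, Rbm3, is also induced by cold and averaged 42.1 ± 2.23 CPM in KO TAC hearts and 43.5 ± 2.37 CPM in KO sham hearts, against 41.8 ± 6.61 CPM in WT TAC hearts and 48.6 ± 1.11 CPM in WT sham hearts. Rbm3 did not pass the test, at 0.01 after TAC (adjusted p = 0.965) and -0.16 after sham (adjusted p = 0.552).

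A mild-cold response element of 8 bases, TCCCCGCC, has been described before Cirbp, and the 250 bases before one of its RefSeq start sites are shown with that octamer in capitals (plus strand of chr10:80167589-80167838, GRCm38.p6). The octamer was searched on both strands and occurs in 1768 of 32851 mouse promoter windows of 300 bases (5.38%). Among the windows of the members that matched the table (5 of 6 genes), it occurs in those of Stk17b and Papln and in 1 of 2 for Cirbp, and not in those of Pdcd5 and Slc5a3. Of these genes, Stk17b and Papln were higher and Cirbp lower in the knockout, and the part of the octamer in their differences was not tested.
Cirbp: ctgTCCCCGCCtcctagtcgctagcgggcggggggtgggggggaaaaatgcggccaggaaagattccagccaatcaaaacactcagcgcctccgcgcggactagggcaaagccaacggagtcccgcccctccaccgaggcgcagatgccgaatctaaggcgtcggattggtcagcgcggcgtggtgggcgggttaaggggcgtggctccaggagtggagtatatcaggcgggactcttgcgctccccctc

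Stk17b (ENSMUSG00000026094) had the tightest libraries of the 6 genes. It was at 19.6, 23.3 and 21.9 CPM in KO TAC hearts and 18.2, 16.7 and 20.1 CPM in KO sham hearts, against 12.1, 12.0 and 11.5 CPM in WT TAC hearts and 11.1, 10.98 and 11.6 CPM in WT sham hearts. The 6 WT hearts kept within 10.98 and 12.1 CPM, and the lowest KO heart was 1.38-fold above the highest of them. KO over WT was 0.86 ± 0.13 after TAC and 0.71 ± 0.13 after sham on the log2 scale. Its relative Dapk3 averaged 15.02 ± 1.95 CPM in KO TAC hearts and 12.95 ± 2.15 CPM in KO sham hearts, against 16.4 ± 1.21 CPM in WT TAC hearts and 11.6 ± 1.66 CPM in WT sham hearts, and did not pass the test by genotype (adjusted p = 0.589 after TAC and 0.653 after sham).

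Rab4a (ENSMUSG00000019478) was the least expressed by count, with 50 to 207 counts a library. It was at 6.34, 6.26 and 6.62 CPM in KO TAC hearts and 5.73, 8.50 and 9.70 CPM in KO sham hearts, against 3.44, 2.69 and 3.05 CPM in WT TAC hearts and 3.81, 3.72 and 3.08 CPM in WT sham hearts. Every KO heart was above every WT heart, and KO sham replicate 1 was the lowest of the KO hearts, beside the KO TAC libraries and under the other KO sham libraries. KO over WT was 1.06 ± 0.21 after TAC and 1.18 ± 0.21 after sham on the log2 scale. Its paralogue Rab4b was at 0.230 ± 0.170 CPM in KO TAC hearts and 0.680 ± 0.126 CPM in KO sham hearts, against 0.446 ± 0.216 CPM in WT TAC hearts and 0.620 ± 0.115 CPM in WT sham hearts, and did not pass the test by genotype (adjusted p = 0.225 after TAC and 0.880 after sham).

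Slc5a3 (ENSMUSG00000089774) showed the largest log2 fold change of the 6 after TAC. It was at 13.9, 16.9 and 12.2 CPM in KO TAC hearts and 15.8, 8.22 and 9.18 CPM in KO sham hearts, against 3.59, 4.46 and 2.99 CPM in WT TAC hearts and 3.44, 5.49 and 4.57 CPM in WT sham hearts. KO sham replicate 1 was again beside the KO TAC libraries, and the lowest KO heart, KO sham replicate 2, was 1.50-fold above the highest WT heart, WT sham replicate 2. KO over WT was 1.96 ± 0.28 after TAC and 1.28 ± 0.27 after sham on the log2 scale. Without KO sham replicate 1 the value after sham was 0.95, below that of Rab4a in the same fit (1.36).

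Slc5a3 shares its first exon with Mrps6, a subunit of the mitochondrial ribosome, on the same strand: 159 of its 10913 exon bases are also Mrps6 exon. The RefSeq start sites of the genes are 14 bases apart, and the 250 bases before the Slc5a3 start are shown with, in capitals, the 236 bases that also belong to the 250 bases before the Mrps6 start (plus strand of chr16:92058072-92058321, GRCm38.p6).
Slc5a3: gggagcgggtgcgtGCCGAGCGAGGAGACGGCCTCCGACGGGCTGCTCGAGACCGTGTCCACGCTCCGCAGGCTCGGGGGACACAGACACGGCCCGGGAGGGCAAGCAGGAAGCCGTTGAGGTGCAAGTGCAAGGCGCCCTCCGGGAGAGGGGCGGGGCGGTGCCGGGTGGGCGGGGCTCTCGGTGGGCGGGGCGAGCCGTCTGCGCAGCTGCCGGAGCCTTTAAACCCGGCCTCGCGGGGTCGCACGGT
Downstream of that shared start, the genes differed in their counts. Mrps6 averaged 15.3 ± 2.02 CPM in KO TAC hearts and 13.6 ± 3.34 CPM in KO sham hearts, against 13.4 ± 0.859 CPM in WT TAC hearts and 10.6 ± 1.00 CPM in WT sham hearts. It did not pass the test by genotype, at 0.19 after TAC (adjusted p = 0.435) and 0.34 after sham (adjusted p = 0.406). As single libraries were left out, the Mrps6 value after sham ran from 0.13 to 0.43, and without KO sham replicate 1 its adjusted p was 0.867. With Slc5a3 and Mrps6 summed, also chosen after seeing the data, KO over WT was 0.79 ± 0.20 after TAC and 0.70 ± 0.20 after sham. The sums of the genotypes did not overlap, with 19.8 CPM in KO sham replicate 2 and 18.2 CPM in WT TAC replicate 3 the closest. That sum contains the Slc5a3 counts by which the gene was chosen, so the choice favours this outcome and it is no separate evidence. Whether the genes differ in their response to genotype was not tested.

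Papln (ENSMUSG00000021223) had the smallest gap of the 6 genes. It was at 17.4, 19.3 and 14.7 CPM in KO TAC hearts and 22.0, 18.9 and 22.1 CPM in KO sham hearts, against 11.4, 7.63 and 8.17 CPM in WT TAC hearts and 9.58, 9.30 and 12.7 CPM in WT sham hearts. KO TAC replicate 5 and WT sham replicate 3 came within 1.16-fold of each other, a gap of 0.21 on the log2 scale that is less than the pooled SD within groups of 0.23. KO over WT was 0.92 ± 0.19 after TAC and 1.00 ± 0.19 after sham on the log2 scale.

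**Figure D2:**
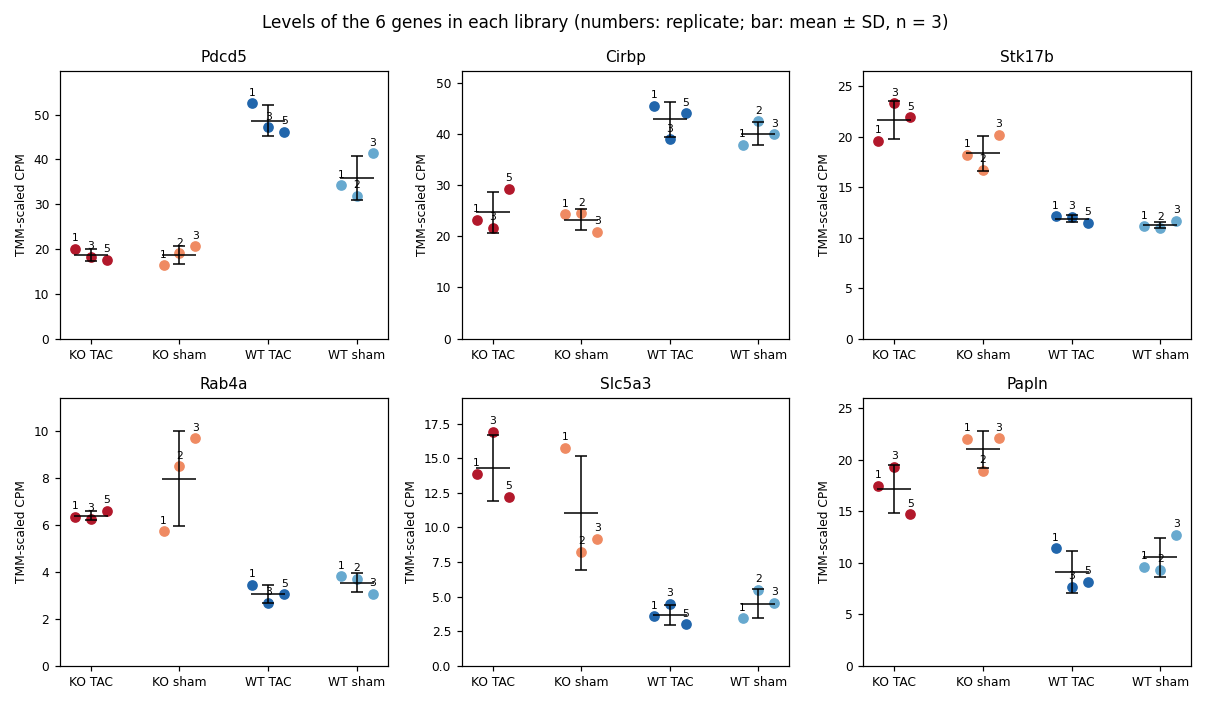
Levels of the 6 genes in TMM-scaled CPM (y axes from 0) in KO TAC, KO sham, WT TAC and WT sham hearts. Points are libraries with their replicate numbers, and bars are the mean ± SD of 3. In each panel the 6 KO points lie on one side of the 6 WT points, and KO sham replicate 1 stands apart from the other KO sham points in Rab4a and Slc5a3.

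Set against all 505 separated genes, ranked by the log2 gap between the closest KO and WT libraries, Pdcd5 was number 8, Rab4a 12, Slc5a3 13, Stk17b 17, Cirbp 23 and Papln 75. Divided by the pooled SD within groups on the log2 scale, the gap was largest for Stk17b (4.74) and Pdcd5 (4.36), followed by Rab4a (2.53), Cirbp (2.47), Slc5a3 (1.63) and Papln (0.918). At the edge of the rule, Hinfp was just inside, with 13.1771 to 15.9596 CPM in KO hearts and 9.09 to 13.1753 CPM in WT hearts. Cdadc1 was just outside, with 26.7 to 34.7586 CPM in KO hearts and 34.7564 to 47.5 CPM in WT hearts. All 6 genes stayed separated under 4 scalings and without any 1 of the 12 libraries, where the choice of the genes nearly fixes the outcome. Their gaps under library totals were 0.43 for Pdcd5, 0.34 for Rab4a, 0.71 for Slc5a3, 0.19 for Stk17b, 0.27 for Cirbp and 0.10 for Papln. Leaving out both doubted libraries together also kept all 6, while the count over all genes went up to 1380. Non-overlap is easier to meet with fewer libraries, and fits without any 1 library also gave more (545 to 1339).

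**Figure D3:**
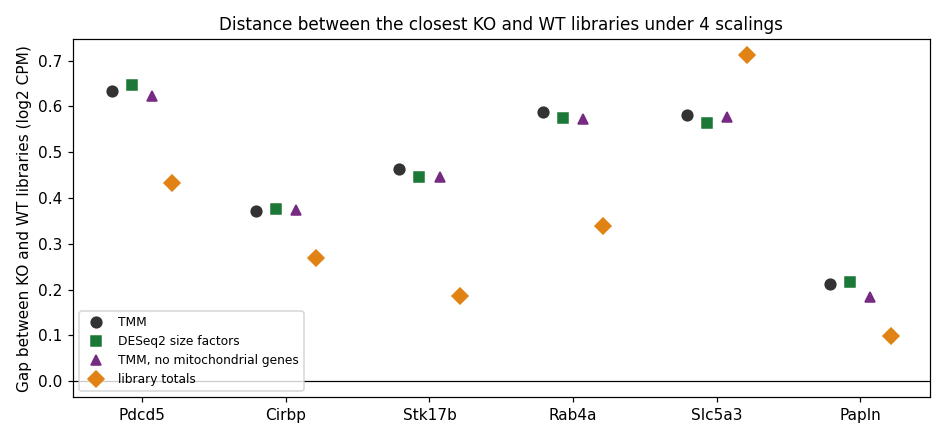
Distance between the closest KO and WT libraries, in log2 CPM (y axis, 0 is contact), for each of the 6 genes under TMM, DESeq2 size factors, TMM without mitochondrial genes and library totals (symbols). All gaps are above 0, and under TMM they run from 0.21 for Papln to 0.63 for Pdcd5.

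Per kilobase of exon, Cirbp and Pdcd5 were the most abundant in WT sham hearts, at 15.4 ± 0.882 and 14.4 ± 1.98 CPM per kb, and did not differ beyond their spread. Stk17b (2.17 ± 0.0662 CPM per kb), Rab4a (2.01 ± 0.226) and Papln (1.87 ± 0.332) followed close together, and Slc5a3 was lowest at 0.413 ± 0.0941. In KO sham hearts Cirbp was at 8.90 ± 0.792 and Pdcd5 at 7.50 ± 0.852 CPM per kb, Rab4a at 4.54 ± 1.16, Papln at 3.73 ± 0.323, Stk17b at 3.54 ± 0.335 and Slc5a3 at 1.01 ± 0.376. Rab4a, Papln and Stk17b again lay within their spread of each other. The Pdcd5 values per kb use its counts apart from those of Pdcd5-ps. Its place in either order may therefore depend on how reads matching both loci were counted.

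The rule did not compare the surgeries, but it read the same 12 libraries and keeps genes with little spread within a genotype, which favours small effects of surgery. The tests of TAC below are therefore read for single genes and not as a property of the 6. None of the 6 passed in KO or WT hearts, and none passed the interaction (the effect of TAC in KO hearts less its effect in WT hearts). Over all tested genes edgeR called 0 in KO (0%), 5 in WT (0.0316%; 4 or 0.0253% higher) and 0 for the interaction (0%), with 4878, 2562 and 1452 at an unadjusted p under 0.05, and DESeq2 called 1783, 507 and 95. DESeq2 called none of the 6 genes in these comparisons either.

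Pdcd5 was flat by surgery in the knockout, at -0.00062 ± 0.14 for TAC over sham on the log2 scale (adjusted p = 0.998), with 18.7 ± 1.26 CPM after TAC and 18.7 ± 2.12 CPM after sham. In WT hearts it averaged 48.7 ± 3.41 CPM after TAC and 35.8 ± 4.93 CPM after sham, without overlap, a log2 fold change of 0.44 ± 0.14 (edgeR adjusted p = 0.194). The interaction was -0.44 ± 0.20 (adjusted p = 0.538), and -0.48 without both doubted libraries (adjusted p = 0.0478), in a fit that called 5774 of 16007 genes (36.1%) for the interaction. With Pdcd5-ps added, the TAC effect was 0.55 ± 0.18 in KO hearts (adjusted p = 0.106) and 0.44 ± 0.18 in WT hearts (adjusted p = 0.273), and the interaction 0.11 ± 0.26 (adjusted p = 0.899).

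Slc5a3 averaged 14.3 ± 2.39 CPM after TAC and 11.1 ± 4.11 CPM after sham in KO hearts, and 3.68 ± 0.738 CPM after TAC and 4.50 ± 1.03 CPM after sham in WT hearts. The log2 effect of TAC was 0.38 ± 0.26 in KO (adjusted p = 0.328) and -0.29 ± 0.28 in WT (adjusted p = 0.598). Without KO sham replicate 1 the effect in KO was 0.71 (adjusted p = 0.0188), in a fit that called 7708 of 16196 genes (47.6%) for TAC in KO. The interaction was 0.67 ± 0.39 (adjusted p = 0.598), then 1.01 without that library (adjusted p = 0.0501), and 0.99 with WT TAC replicate 1 left out as well (adjusted p = 0.0246), where 36.1% of all genes were called.

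Rab4a averaged 6.41 ± 0.190 CPM after TAC and 7.98 ± 2.03 CPM after sham in KO hearts, and 3.06 ± 0.377 CPM after TAC and 3.54 ± 0.398 CPM after sham in WT hearts. Its TAC effect was -0.32 ± 0.21 in KO (adjusted p = 0.292) and -0.21 ± 0.21 in WT (adjusted p = 0.626). The value in KO moved with single sham libraries, to -0.51 without KO sham replicate 1 (adjusted p = 0.0294, in the same fit with 47.6% of genes called) and to -0.15 without KO sham replicate 3 (adjusted p = 0.738). The interaction of Rab4a was -0.11 ± 0.30 (adjusted p = 0.913).

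Stk17b, Papln and Cirbp did not pass in any of these comparisons, with or without the doubted libraries. The TAC effect on Stk17b was 0.23 ± 0.12 in KO (adjusted p = 0.211) and 0.08 ± 0.13 in WT (adjusted p = 0.762). That on Papln was -0.29 ± 0.19 in KO (adjusted p = 0.292) and -0.21 ± 0.19 in WT (adjusted p = 0.573). That on Cirbp was 0.09 ± 0.14 in KO (adjusted p = 0.673) and 0.10 ± 0.14 in WT (adjusted p = 0.743). The interaction had an adjusted p of 0.786 for Stk17b, 0.934 for Papln and 0.993 for Cirbp.

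**Figure D4:**
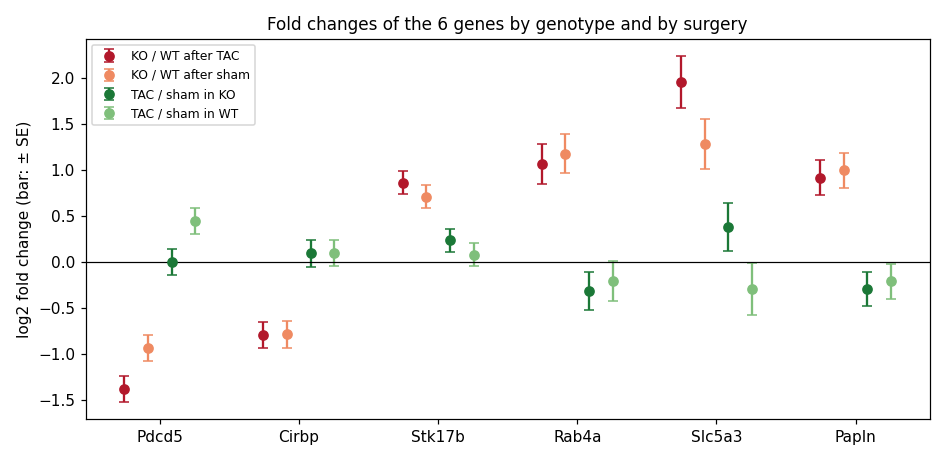
Log2 fold changes of the 6 genes for KO over WT after TAC and after sham and for TAC over sham in KO and in WT, as edgeR's estimate ± SE. The KO over WT values, which chose the genes, run from -1.38 for Pdcd5 to 1.96 for Slc5a3 after TAC, and the TAC over sham values, which that choice holds down, from -0.32 for Rab4a in KO to 0.44 for Pdcd5 in WT.

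Where KO sham replicate 1 fell differed among the genes. On the log2 scale it stood at -0.66 from the mean of the other KO sham libraries for Rab4a and at 0.86 from it for Slc5a3, and within 0.16 of the KO TAC mean for both (-0.16 and 0.15). Papln in that library was 0.11 from the other KO sham libraries and 0.37 from the KO TAC mean. Stk17b was -0.01 from the KO sham mean, and Cirbp -0.01 from the KO TAC mean and 0.11 from the KO sham mean. Pdcd5 was -0.19 from the KO TAC mean and -0.27 from the KO sham mean. The library was thus nearer to the KO TAC mean for Rab4a, Slc5a3, Cirbp and Pdcd5, as on the first principal component, and nearer to the other KO sham libraries for Stk17b and Papln.

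Markers of heart muscle moved with the genotype. The summed level of 8 cardiomyocyte markers, all detected, was 25605 to 40562 CPM in KO hearts and 42819 to 48407 CPM in WT hearts, without overlap, and Tnnt2 (cardiac troponin T) alone was at 4633 to 5821 CPM in KO hearts and 7011 to 8875 CPM in WT hearts. In these bulk samples fewer cells of a type and less RNA per cell cannot be told apart. B-cell markers, 7 of 7 detected, summed to 10.8 to 17.5 CPM in KO hearts and 5.61 to 10.1 CPM in WT hearts, also without overlap. T and NK cell markers, the lineage in which Stk17b is best known, overlapped at 2.75 to 10.8 CPM in KO hearts and 2.04 to 7.28 CPM in WT hearts, as did macrophage markers at 328 to 357 CPM and 247 to 427 CPM. Endothelial markers (1034 to 1334 CPM in KO hearts, 738 to 1107 CPM in WT hearts) and fibroblast markers (947 to 1459 CPM in KO hearts, 692 to 1125 CPM in WT hearts) overlapped too. After TAC alone, the endothelial and fibroblast sums did not overlap. Endothelial markers were at 1133 to 1185.5 CPM in KO TAC hearts and 738 to 1081.5 CPM in WT TAC hearts. Fibroblast markers were at 1228 to 1459 CPM and 692 to 1125 CPM. The sum of smooth muscle and pericyte markers was lower in KO TAC hearts (662 to 710 CPM) than in WT TAC hearts (862 to 1041 CPM). Of its 7 markers, however, 4 were higher in KO after TAC (median log2 fold change 0.17), and 1 was called lower. The sum of skeletal muscle markers was lower too, at 183 to 232 CPM in KO TAC hearts and 445 to 959 CPM in WT TAC hearts. Only 3 of its 6 markers were tested, of which 2 were higher in KO (median 0.28) and 1 was called lower. Myh1, Myh2 and Myh4 had no count in KO TAC hearts, so that sum rests on the other markers. Further marker sets were higher in KO hearts after TAC. Atrial myocyte markers summed to 678 to 2450 CPM in KO TAC hearts and 253 to 551 CPM in WT TAC hearts, and 5 of 6 were called higher in KO. Adipocyte markers summed to 8.92 to 10.5 CPM in KO TAC hearts and 0.147 to 0.806 CPM in WT TAC hearts, with 4 of the 4 tested called higher. Mesothelial markers summed to 26.8 to 39.3 CPM in KO TAC hearts and 4.78 to 7.67 CPM in WT TAC hearts, with 1 of 5 called higher. Over all genes 8.63% were called higher and 11.7% lower after TAC. In other sets, 2 of 7 B-cell, 2 of 7 fibroblast and 1 of 7 endothelial markers were called higher. Called lower were 2 of 8 cardiomyocyte markers and 1 of 9 macrophage markers. The calls over all genes ran from 43 to 6585 as single libraries were left out, and the marker calls were not repeated that way. KO sham replicate 1 had the highest atrial (3071 CPM) and mesothelial (70.1 CPM) sums of all 12 libraries. After sham, none of these markers was called. The part of these markers, and of the mitochondrial share, in the 6 genes' differences was not tested.

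The genes around each of the 6 were read from 6 lists, of 130 genes in all, chosen with earlier results of these data known. Of 123 tested members, 15 were called higher and 14 lower in KO than in WT after TAC, 23.6% together against 20.4% of all genes, and none after sham, where 1 of all genes was called. None was called for TAC or for the interaction in edgeR. The counts of each list below stand beside 8.63% of all genes called higher and 11.7% called lower after TAC. The calls after TAC went to 0 without KO TAC replicate 1, KO TAC replicate 3 or WT TAC replicate 5, to 1 without KO TAC replicate 5, to 2 without WT TAC replicate 3, and up to 57 without KO sham replicate 1 and 42 without WT TAC replicate 1. Over all genes, the same fits called 0.357, 0.265, 1.02, 2.7, 0.523, 40.7 and 33.6%, in that order. The calls in the lists thus rest on single libraries, as do those over all genes. They also rest on the scaling: with library totals 5 were called higher and 26 lower, and of the genes named below Adamts9, Adamts10, Srsf6, Ripk1 and Dapk1 were no longer called, each still above 0.

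Of the papilin and ADAMTS family, matrix proteases and their relatives, 22 of 25 genes were tested. Of these, 4 were called higher and 0 lower in KO after TAC (2 and 0 with library totals), beside 20.4% of all genes called. Their median log2 fold change of KO over WT was 0.33 after TAC and 0.58 after sham, beside -0.02 and 0.01 for all genes. The median without the doubted libraries was not computed. As single libraries were left out, the lowest values after sham were 0.43 for Adamts10 and 0.08 for Adamts19. They were 2.19 for Adamtsl2 and 0.63 for Adamts9. Adamtsl2, a fibrillin-binding relative of papilin, rose by 1.75 (adjusted p = 0.0333), at 79.2 ± 33.6 CPM in KO TAC hearts and 23.5 ± 13.8 CPM in WT TAC hearts. Adamts9, a versican-cleaving protease, rose by 0.69 (adjusted p = 0.0483), and its KO hearts (34.2 to 47.0 CPM) lay above all WT hearts (16.1 to 31.5 CPM). Adamts10 rose by 1.35 (adjusted p = 0.0380) and Adamts19 by 2.30 (adjusted p = 0.0488). Adamts1, a further protease of the family, was separated too, at 54.7 to 127 CPM in KO hearts and 29.1 to 49.9 CPM in WT hearts (chosen after its values were seen). The listed family without Papln thus had 2 separated genes of 22 tested, beside 3.2% of all genes.

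Of the myo-inositol and osmolyte genes around Slc5a3, 15 of 18 were tested, and 0 were called higher and 4 lower in KO after TAC. The median was -0.12 after TAC and 0.05 after sham. Akr1b3, the aldose reductase that makes sorbitol, fell by 1.90 (adjusted p = 0.0229), at 32.2 ± 3.91 CPM in KO TAC hearts and 120.4 ± 30.6 CPM in WT TAC hearts. Slc6a6, the taurine transporter, fell by 0.93 (adjusted p = 0.0295), Inpp5a, an inositol phosphatase, by 1.41 (adjusted p = 0.0295) and Impa2, an inositol monophosphatase, by 1.11 (adjusted p = 0.0470). These 4 genes and Slc5a3 thus differed in direction after TAC. Slc38a2, an amino acid transporter, was the 1 other separated gene, at 213.1 to 332 CPM in KO hearts and 154 to 212.9 CPM in WT hearts.

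Among genes of endosomal recycling, the route of Rab4a, 29 of 30 were tested, with 2 called higher and 8 lower in KO after TAC (0 and 10 with library totals) and a median of -0.35 after TAC and -0.06 after sham (0.06 with library totals). Rab11b, the GTPase of the slower recycling route, fell by 0.95 (adjusted p = 0.0209), at 43.9 ± 6.28 CPM in KO TAC hearts and 85.1 ± 14.8 CPM in WT TAC hearts. Ehd4, an endosomal ATPase, fell by 1.44 (adjusted p = 0.0224), Rab5c, a GTPase of early endosomes, by 0.49 (adjusted p = 0.0229) and Slc2a4, the insulin-responsive glucose transporter that recycles through endosomes, by 1.19 (adjusted p = 0.0290). None of the listed genes was separated by genotype.

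Cold-inducible and other RNA-binding genes around Cirbp were all tested (23), with 7 called higher and 0 lower in KO after TAC (3 and 3 with library totals) and medians of 0.01 after TAC (-0.19 with library totals and -0.01 without mitochondrial genes) and 0.15 after sham. The splicing factors Tra2a, Srsf7 and Srsf6 rose by 1.33 (adjusted p = 0.0216), 0.94 (adjusted p = 0.0233) and 0.83 (adjusted p = 0.0373), and Clk1, a kinase of splicing factors, by 1.31 (adjusted p = 0.0365). Tra2a was at 181.5 ± 15.9 CPM in KO TAC hearts and 72.0 ± 12.5 CPM in WT TAC hearts. Cirbp itself was lower, and none of the listed genes was separated.

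Of 18 chaperonin and prefoldin genes around Pdcd5, all tested, 0 were called higher and 1 lower after TAC, with medians of -0.30 after TAC and -0.03 after sham (0.07 with library totals, which also called 5 lower after TAC). The 1 was Pfdn1, a prefoldin subunit, which fell by 0.73 (adjusted p = 0.0165), at 31.6 ± 1.25 CPM in KO TAC hearts and 52.3 ± 6.67 CPM in WT TAC hearts. Of 16 death-associated and related kinase genes around Stk17b, 2 were called higher and 1 lower (0 and 3 with library totals), with medians of 0.08 after TAC (-0.15 with library totals) and -0.01 after sham (0.11 with library totals). Ripk1, a kinase of cell death signalling, rose by 0.71 (adjusted p = 0.0402) and Dapk1 by 0.46 (adjusted p = 0.0417), while Chp1, a calcium-binding protein that binds STK17B, fell by 0.99 (adjusted p = 0.0280).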

How the data were processed

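Heart poly(A) RNA of 12 mice was read as 150 bp pairs. The authors deposited raw read counts, whole numbers for each gene identifier. HISAT2 is the aligner per the submitters' processing notes; the counting program, genome build, annotation, strand use and treatment of reads with several matches are stated in no source used here. Symbols came from GENCODE M21, whose build may differ, and matched 52081 of 55357 identifiers.

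Counts were tested in edgeR 4.0.16 (R 4.3.3) with TMM scaling, filterByExpr by group and a robust quasi-likelihood model of all 12 libraries, with a mean for each of the 4 groups (8 residual degrees of freedom). P-values were adjusted after Benjamini-Hochberg over 15804 genes at 0.05, in 5 comparisons. Tested genes hold at least 99.9% of each library's counts after rounding. Values are TMM-scaled CPM with SD over 3 libraries, and fold changes are log2 with SE; per-kilobase levels use merged exon lengths. The procedure was tested on simulated data.

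Besides the 6 genes and Cd163, genes were named by rule: closest paralogues and overlapping genes, the 3 nearest patterns to each gene, and up to 4 called genes of each list with the smallest p. Pdcd5-ps, the flanking genes, Adamts1, Slc38a2 and Tnnt2 were added after their values were seen. The 6 genes and all lists were chosen with earlier results of these data known. Libraries of 1 group differed beyond sampling noise (variance at least 8.66 times that of counting). Alternatives were other scalings, no mitochondrial genes, no filter, DESeq2 1.42.0, a replicate block, fits of 2 groups, left-out libraries and summed copies.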

Additional observations from a re-analysis of the deposited data

How the results depend on the processing

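All 6 genes stayed separated by genotype under every scaling, without the filter and in each of the 12 fits without 1 library (6 to 6), as their choice nearly fixes. Only summing Pdcd5 with Pdcd5-ps ended a separation (gap -0.50). Counts over all genes were far less stable. With library totals, TAC in WT called 44 genes, the interaction 7, KO over WT after sham 0, and 259 genes were separated; that scaling moved the median of all genes by -0.17 for TAC in KO, 0.15 for TAC in WT, -0.33 for the interaction, -0.22 for KO over WT after TAC and 0.11 after sham, and split the calls after TAC into 515 higher and 3010 lower. Removing mitochondrial genes gave 2 interaction calls. Without the filter there were 687 calls for TAC in KO, 137 for TAC in WT, 43 for the interaction and 80 for KO over WT after sham. DESeq2 gave 1783, 507, 95 and 207 in that order. Fits of the compared groups alone gave 89 for TAC in WT and 0 for KO over WT after sham. Without the doubted libraries, KO sham 1 and WT TAC 1, there were 8879 for TAC in KO, 989 for TAC in WT, 5774 for the interaction, 8614 and 295 for KO over WT after TAC and after sham, and 1380 separated genes. Leaving out single libraries gave 0 to 7708, 1 to 1058, 0 to 1961, 43 to 6585 and 0 to 39 in the same order, and 545 to 1339 separated genes. With fewer libraries non-overlap is easier to meet, so those counts of separated genes do not compare directly with the 505 of all 12. The cause of these changes was not tested.

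Replicate numbers did not pair the libraries (correlations of same-numbered deviations -0.194 to 0.06). With the replicate block, TAC in WT had 0 calls. Signs turned only for values near 0 or with summed copies. Pdcd5, TAC in KO: 0.0077 with the block, 0.018 with DESeq2, 0.021 with its size factors, 0.00067 without mitochondrial genes, 0.55 summed with Pdcd5-ps and -0.090 to 0.086 without single libraries; its interaction was 0.11 summed. Cirbp, interaction: 0.019 with DESeq2, 0.017 with its size factors, 0.068 without both libraries and -0.13 to 0.081 without single ones; TAC in KO was -0.069 with totals and -0.025 to 0.17 without single ones. Interactions were -0.18 for Stk17b with totals, 0.15 for Papln without both libraries and -0.24 to 0.14 without single ones, and -0.30 to 0.0496 for Rab4a. Slc5a3 summed with Mrps6 had a TAC effect of 0.17 in WT. The lowest counts of a library were 50 for Rab4a and 55 for Slc5a3.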

Other observations

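Genes with the profile nearest to each of the 6, over the 12 libraries, were found by the root mean square difference of centred log2 CPM among 12452 genes of at least 1 CPM with a named symbol. All libraries share the groups that chose the 6 genes, so this is a description. Nearest to Pdcd5 were Usmg5 (0.22) and Cox7c (0.23), which encode small proteins of the mitochondrial ATP synthase and of cytochrome c oxidase, and Nnt (0.24), the mitochondrial transhydrogenase. Nnt was close to the limit of 1 CPM, at 0.76 to 1.12 CPM in KO hearts and 1.27 to 2.06 CPM in WT hearts. Cox7c averaged 314 ± 12.5 CPM in KO TAC hearts and 325 ± 48.9 CPM in KO sham hearts, against 584 ± 58.2 CPM in WT TAC hearts and 499 ± 53.3 CPM in WT sham hearts. It was also among the nearest to Cirbp (0.19), with Tmem220 (0.15) and Mmp11 (0.19), a secreted protease. Each of these genes was lower in all 6 KO hearts than in all 6 WT hearts.

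Nearest to Stk17b were Ywhaq (0.13), a 14-3-3 protein, Skil (0.13), a repressor of TGF-beta signalling, and Kitl (0.15), the ligand of the Kit receptor. Nearest to Rab4a were Col15a1 (0.23) and Col6a3 (0.24), collagens of the basement membrane zone and the microfibrils, and Cttnbp2nl (0.26). Col15a1 averaged 115 ± 15.3 CPM in KO TAC hearts and 169 ± 15.8 CPM in KO sham hearts, against 66.5 ± 15.7 CPM in WT TAC hearts and 80.7 ± 8.78 CPM in WT sham hearts. Nearest to Slc5a3 were Dnaja1 (0.26), a co-chaperone of HSP70, Zmym1 (0.27) and Tnfrsf25 (0.34). Dnaja1 averaged 180 ± 48.5 CPM in KO TAC hearts and 128 ± 35.8 CPM in KO sham hearts, against 57.0 ± 14.8 CPM in WT TAC hearts and 60.3 ± 3.72 CPM in WT sham hearts. Nearest to Papln were Vav3 (0.19), Itga6 (0.21), a laminin-binding integrin subunit, and Dchs1 (0.21). All of these but Itga6 were higher in every KO heart; Itga6 was at 101 to 171 CPM in KO hearts and 55.7 to 102 CPM in WT hearts, which touch.

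The flanking genes, taken as the nearest tested gene with a symbol on each side of each of the 6, were not separated by genotype. Genes that were not tested were passed over. After TAC, Midn, before Cirbp, fell by 0.63 (edgeR adjusted p = 0.0254; -0.02 and adjusted p = 0.965 after sham) and Numb, after Papln, rose by 0.98 (adjusted p = 0.0438; 0.90 and adjusted p = 0.293 after sham). Midn was called in 7 and Numb in 4 of 12 fits that each left out 1 library, with adjusted p of up to 0.104 for Midn and 0.147 for Numb; with library totals Numb had 0.113. The other 10 flanking genes did not pass in either comparison.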
